A study of Caenorhabditis elegans with 5 samples.

Results

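The windows described here are 1 kb stretches of the 5 autosomes that were highly transcribed in wild-type (WT) C. elegans and lay outside the classes of highest trimethylation of histone H3 at lysine 9 (H3K9me3). A window was a member when its WT value was at least 50 RPKM, its H3K9me3 class in the deposited table was 5 to 8, and the authors had marked it neither as a nuclear RNAi target (GRTS or GRH), nor as having lost H3K9me3 in a methyltransferase mutant, nor as misannotated. In all, 2793 windows met the rule, 4.63% of the 60356 windows that met it apart from level and 2.79% of all 100270 windows. They were 83.3% of the 3351 autosomal windows with at least 50 RPKM in WT. Members were thus chosen by their WT values, the H3K9me3 class and the marks, so WT levels and ratios to WT are given as a description only.

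Nascent transcripts were measured by pre-mRNA-seq, in which RNA is taken from chromatin that immunoprecipitates with the elongating form of RNA polymerase II, recognised by phosphoserine 2 in its tail. The 5 genotypes were each measured in 1 library. The triple mutant combines allele n4256 of met-2 and ok5021 of set-25 with ok1457 of set-32, the set-32 strain carries ok1457 alone, the double mutant met-2 set-25 carries n4256 and ok5021, the hrde-1 strain carries tm1200, and WT is strain N2. Every strain was grown at 19 °C on E. coli OP50, and whole young adults were collected in synchrony. With 1 library per genotype no difference has a replicate check and no p-value is given, and windows of a library are not replicates. In whole animals, fewer cells of a type and less RNA per cell cannot be told apart. The table carries no gene names, so tissue markers and the mutated genes themselves were not analysed here, and coordinates are ce6 (WS190), counted from 1.

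H3K9me3 is a mark of heterochromatin that is typical of repeats and silenced genes, and in C. elegans it is concentrated on the arms of the autosomes. MET-2 is the methyltransferase that provides mono- and dimethylated H3K9, SET-25 adds the final methyl group, and SET-32 is a further putative H3K9 methyltransferase. The study reported lower H3K9me3 in set-32 mutants at targets of nuclear RNAi and at other regions of the genome. HRDE-1, an Argonaute protein of the germline, binds small RNAs and directs silencing in the nucleus. The members lie outside the marked targets of this pathway.

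The libraries differed in depth and in make-up. A value of 50 RPKM rested on 16.2 reads in the triple mutant, 27.8 in set-32, 33.5 in the double mutant, 33.9 in hrde-1 and 54.8 in WT. Windows of the rRNA genes (I 15060001 to 15072000), none of them a member, took 37.3% of the triple mutant library and 27.8% of set-32, against 4.64% to 8.90% of the other 3. Library codes put the triple mutant and set-32 in one set, and the double mutant, hrde-1 and WT in another, so that across the sets the genotype cannot be told apart from the library set. The comparisons that the rule did not use and that stay within a set are the triple mutant against set-32 and the double mutant against hrde-1, and these share no library. The members together held 17.4% of the triple mutant library, 19.6% of set-32, 21.8% of the double mutant, 23.0% of hrde-1 and 26.4% of WT. Without the rRNA gene windows the shares were 27.8%, 27.1%, 23.1%, 25.2% and 27.7% in the same order.

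Windows that were high in WT were transcribed in each of the mutants. The median member had 30.9 RPKM for the triple mutant, 46.7 RPKM for set-32, 60.5 RPKM for the double mutant, 63.4 RPKM for hrde-1 and 72.1 RPKM for WT. The lowest member value was 0 in the triple mutant, 1.80 RPKM for set-32, 1.49 RPKM for the double mutant and 11.8 RPKM for hrde-1, and 6 members were at 0 in the triple mutant, where a count of 0 allows up to 9.26 RPKM (3 reads). Values of at least 50 RPKM were reached by 704 members in the triple mutant (25.2%), 1255 in set-32 (44.9%), 1820 in the double mutant (65.2%) and 1961 in hrde-1 (70.2%), and 658 members (23.6%) reached this level in all 5 libraries. The libraries were thus ordered by their typical member value, and the order followed the scaling in part. After rescaling each library so that windows marked in no list (unlisted) had a median ratio of 1 to WT, 58.8% of members in the triple mutant, 68.9% in set-32, 65.2% in the double mutant and 74.2% in hrde-1 reached 50 RPKM.

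Among the 4 mutants, hrde-1 had the highest value at 48.5% of members and the double mutant at 35.3%, while the triple mutant had the lowest at 77.0%. The ranks of the members were nevertheless shared between libraries. Spearman's rho over the 2793 windows was lowest between the triple mutant and WT (0.60) and highest between hrde-1 and WT (0.80). These are descriptions across windows that share a library, and adjacent windows often share a transcript.

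**Figure D1:**
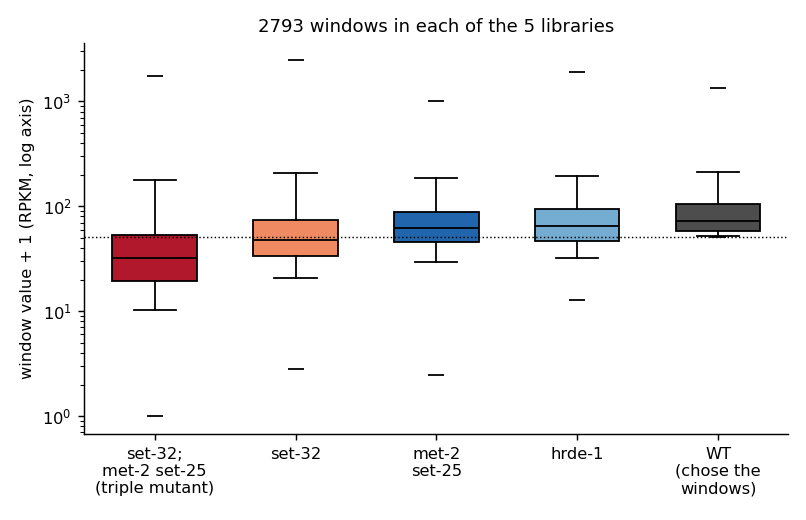
Values of the 2793 members in each library, as RPKM plus 1 on a log axis. Boxes span the quartiles with the median, whiskers run from the 5th to the 95th percentile, separate dashes are the lowest and highest window, and the dotted line is the 50 RPKM threshold that was applied to WT. Medians go from 30.9 RPKM for the triple mutant to 72.1 RPKM for WT.

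High transcription was most frequent in class 7 of the H3K9me3 classes 5 to 7 that hold the members. The sources used here do not define the classes, but 99 of the 100 windows of class 1 were marked in some list and almost none of classes 5 to 7, so class 1 was read as the highest. The marks do not order classes 6 and 7, with 2 marked windows each, and class 8 breaks the order, with 89 of its 519 windows marked in a list and 506 marked misannotated. Classes 5 to 8 together hold 74.5% of all windows, so low H3K9me3 here means only outside classes 1 to 4, and the H3K9me3 values themselves were not used here. Classes 5, 6 and 7 held 251, 422 and 2120 members, which is 1.35%, 2.23% and 9.31% of the windows that met the rule apart from level, and class 8 held none. Class 7 thus had 75.9% of the members, against 37.7% of those windows. The other libraries, which the rule did not use, had the same contrast. The share of unmarked autosomal windows at or above 50 RPKM was 0.724% in class 5, 0.924% in class 6 and 2.28% in class 7 in the triple mutant. In set-32 it was 0.944%, 1.32% and 4.15%, in the double mutant it was 1.34%, 2.03% and 7.27%, and in hrde-1 it was 1.20%, 1.88% and 7.66%. Within the members the class made less difference to the level, with hrde-1 medians of 61.9, 68.2 and 63.4 RPKM in classes 5, 6 and 7.

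Members were spread over all 5 autosomes and were somewhat denser in the centres than on the arms. Chromosome I held 642 members (5.79% of its windows that met the rule apart from level), II held 518 (4.66%), III held 603 (5.51%), IV held 556 (4.07%) and V held 474 (3.49%). With the arms taken as the outer 30% of an autosome on either side, 54.6% of members lay in the centres, which hold 49.0% of the windows that met the rule apart from level. Of these windows 5.15% were members in the centres and 4.12% on the arms. In class 7 alone the shares were 11.2% in the centres and 7.65% on the arms, so the contrast was present within this class. The left arm of chromosome II was the sparsest region, with 33 members (1.58%), and the centre of III the densest (6.57%). Position made little difference to the 2 comparisons within library sets. The median log2 ratio of the triple mutant to set-32 was -0.53 in the centres and -0.59 on the arms, and that of the double mutant to hrde-1 was -0.09 and -0.08.

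**Figure D2:**
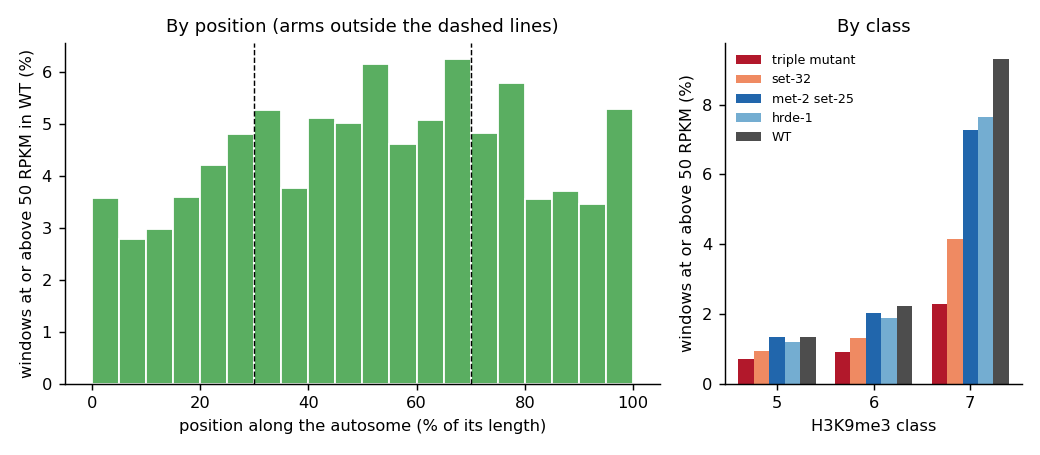
Left, share of windows at or above 50 RPKM in WT among those that met the rest of the rule, in bins of 5% of the autosome length, with dashed lines at the borders of arms and centre. Right, share of unmarked autosomal windows at or above 50 RPKM in each library by H3K9me3 class, for which WT shares are 1.35%, 2.23% and 9.31% in classes 5, 6 and 7.

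Most members had another member beside them. The 2793 members formed 1607 runs of adjacent windows, of which 999 were a single window, and 64.2% of members were in runs of at least 2 kb. For 42.5% of members the next window to the right was a member. There were 72 runs of 5 kb or more, with 452 members, and the longest was 16 kb. Members of longer runs were higher in WT, whose values set the runs. The WT median was 99.2 RPKM in runs of 5 kb or more, 77.5 RPKM in runs of 2 to 4 kb and 62.0 RPKM in single windows. The libraries that the rule did not use had the same order, and their ranks are shared with WT, so it is not independent of the rule. In hrde-1 the median was 81.0 RPKM in runs of 5 kb or more, 66.3 RPKM in runs of 2 to 4 kb and 53.1 RPKM in single windows, and in the triple mutant it was 40.2, 34.0 and 24.7 RPKM. Adjacent members also tended to deviate together. Over the 1186 adjacent pairs, Pearson's r of the log2 ratio was 0.30 for the triple mutant to set-32 and 0.49 for the double mutant to hrde-1.

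The longest run was IV 3034001 to 3050000, on the left arm and almost wholly in class 7. Its mean was 82.2 RPKM for the triple mutant, 194 RPKM for set-32, 107 RPKM for the double mutant, 168 RPKM for hrde-1 and 191 RPKM for WT. The strains that lack MET-2 and SET-25 were thus lower here than the strain of the same library set that retains them. The ratio of the triple mutant to set-32 was 0.424 (95% counting interval 0.381 to 0.472), and that of the double mutant to hrde-1 was 0.636 (0.590 to 0.685). The second longest run, I 4386001 to 4399000, had 65.8 RPKM for the triple mutant, 118 RPKM for set-32, 95.1 RPKM for the double mutant, 137 RPKM for hrde-1 and 177 RPKM for WT. Its ratios, 0.556 (0.483 to 0.637) and 0.691 (0.632 to 0.756), were below 1 in both comparisons too. For the triple mutant to set-32 a ratio below 1 is not particular to these runs, since the median ratio was 0.678 over all members and 0.821 in unlisted windows that averaged 5 RPKM or more. For the double mutant to hrde-1 these medians were 0.941 and 1.08.

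The other long runs differed among themselves. At IV 15037001 to 15047000 the means were 54.3 RPKM for the triple mutant and 80.8 RPKM for set-32 (ratio 0.672, 0.561 to 0.802), and 83.2 RPKM for the double mutant and 85.7 RPKM for hrde-1 (0.972, 0.865 to 1.09). V 11072001 to 11082000 had 64.9 RPKM for the triple mutant and 97.1 RPKM for set-32, and 103 RPKM for the double mutant and 120 RPKM for hrde-1 (0.862, 0.778 to 0.955). I 7927001 to 7936000 had 33.6 RPKM for the triple mutant and 55.7 RPKM for set-32, and 57.4 RPKM for the double mutant and 77.9 RPKM for hrde-1 (0.738, 0.639 to 0.847). The interval of the double mutant to hrde-1 holds 1 only in the first of these 3. Some runs went the other way in their means. Among the 12 longest, chosen after the values were seen, II 10542001 to 10550000 had 131 RPKM for the triple mutant and 104 RPKM for set-32 (1.26, 1.09 to 1.45), and 152 RPKM for the double mutant and 97.6 RPKM for hrde-1 (1.56, 1.39 to 1.74). A single window of this run, II 10545001 to 10546000, had 689 RPKM for the triple mutant and 322 RPKM for set-32. It weighs heavily in the run mean of the triple mutant, and the ratio of the run without it was not computed. At I 7079001 to 7087000 the ratio of the double mutant to hrde-1 was 1.57 (1.39 to 1.77), and that of the triple mutant to set-32 was 0.634 (0.509 to 0.784).

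**Figure D3:**
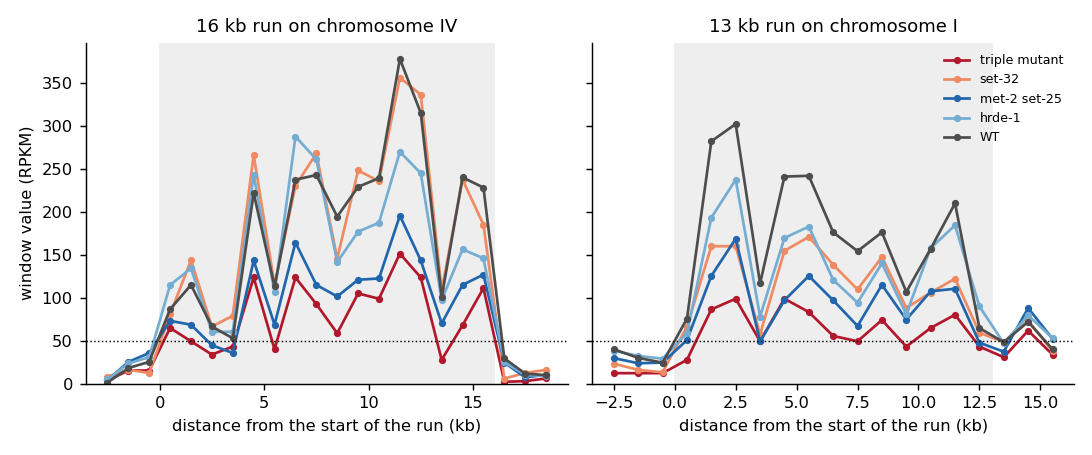
Values in RPKM of the 1 kb windows along the 16 kb run on chromosome IV and the 13 kb run on chromosome I (grey) and their 3 kb flanks, 1 line per library, with a dotted line at 50 RPKM. The triple mutant and the double mutant lie below set-32 and hrde-1 over most of both runs, with run means of 82.2 and 107 RPKM against 194 and 168 RPKM on chromosome IV.

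The triple mutant against set-32 asks what the loss of MET-2 and SET-25 adds where SET-32 is already missing. Most members had a lower value in the triple mutant, and a small group had a much higher one. The value was lower in 2258 of 2793 members and the median log2 ratio was -0.56, against -0.28 in unlisted windows that averaged 5 RPKM or more. A window was called when its ratio was at least 2 after adding 1 RPKM to both values and 20 RPKM or more was reached in at least 1 of the libraries. By this rule 695 members (24.9%) were lower and 93 (3.33%) higher, where all 99764 windows tested had 2.51% lower and 0.745% higher. Among the windows that reached 20 RPKM in either library, which alone could be called, 27.1% were lower and 8.04% higher. Members were called no more often than this set, which is chosen on the 2 libraries compared. In the 684 other windows with at least 50 RPKM in WT, 26.3% were lower and 1.46% higher. Members were thus called higher more often than these windows, which differ from them in list marks, classes or chromosome. With both libraries rescaled to the unlisted windows, 420 members were lower and 130 higher (1.67% and 1.74% of all windows).

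Named members show how far single windows went. I 14653001 to 14654000 (class 7, right arm) had 12.4 RPKM for the triple mutant, 165 RPKM for set-32, 97.0 RPKM for the double mutant, 92.8 RPKM for hrde-1 and 125 RPKM for WT. The triple mutant stood apart from the other 4 libraries there, with a ratio to set-32 of 0.0747 (0.0199 to 0.198). II 10257001 to 10258000 had 6.18 RPKM for the triple mutant and 84.5 RPKM for set-32. The other 3 of the 5 smallest ratios rested on 0 reads or a fraction of a read in the triple mutant, such as II 411001 to 412000 with 0 RPKM, against 25.2 RPKM for set-32. At the other end, II 11167001 to 11168000 (class 6) had 997 RPKM for the triple mutant, 268 RPKM for set-32, 124 RPKM for the double mutant, 128 RPKM for hrde-1 and 58.4 RPKM for WT. II 6248001 to 6249000 (class 7) had 868, 241, 179, 180 and 107 RPKM in the same order, with a ratio of the triple mutant to set-32 of 3.6 (2.92 to 4.46). The 2 windows thus had the same order of libraries, apart from the near tie of the double mutant and hrde-1.

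The members called higher in the triple mutant, a call that rests on this library and set-32, also stood apart in the other libraries and in position. Their median was 534 RPKM for the triple mutant, 191 RPKM for set-32, 137 RPKM for the double mutant, 119 RPKM for hrde-1 and 85.1 RPKM for WT, while the other 2700 members had medians of 30.9, 44.9, 59.7, 63.4 and 72.1 RPKM. In the libraries outside the call, the double mutant was above WT in 78 of the 93 and hrde-1 in 68, against 533 and 606 of the other 2700 members. These counts are against WT, whose values chose the members, and are a description only. The median log2 ratio of the double mutant to hrde-1, which leaves WT out, was 0.03 in the 93 and -0.09 in the others. No member lay beside 58.1% of the 93, against 35.0% of the others. The higher of the neighbouring windows had a median of 24.7 RPKM for the triple mutant, against 30.9 RPKM in the others. This median was also 24.7 RPKM in the members called lower, so low neighbours are not particular to the 93. The 93 windows held 28.6% of all member signal in the triple mutant, 9.22% in set-32, 6.09% in the double mutant, 5.50% in hrde-1 and 3.56% in WT. Summed over members, the ratio of the triple mutant to set-32 was 0.890 (0.881 to 0.899), and 0.700 (0.692 to 0.708) without them.

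A subset of 67 of these windows, singled out after the values were seen, lay above 200 RPKM in the triple mutant, at 247 RPKM or more. In all, 124 members reached 200 RPKM in the triple mutant, so the level alone does not set the 67 apart. The choice puts the triple mutant above set-32 in all 67, so the place of the triple mutant in the order is largely set by it. The triple mutant was the highest of the 5 libraries in all 67, set-32 the second in 55, and WT the lowest in 58. They were found on every autosome, with 15 on I, 16 on II, 11 on III, 13 on IV and 12 on V. In 46 of them both neighbouring windows were below 50 RPKM for the triple mutant. Only 25.2% of all members reached 50 RPKM in this library, so such neighbours are not read as a trait of the 67. The rRNA gene windows had the same order of libraries, since in 12 of 12 the triple mutant was above set-32, set-32 above both the double mutant and hrde-1, and these above WT, as in 52 of the 93 members. The part of the rRNA share in these values was not tested.

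**Figure D4:**
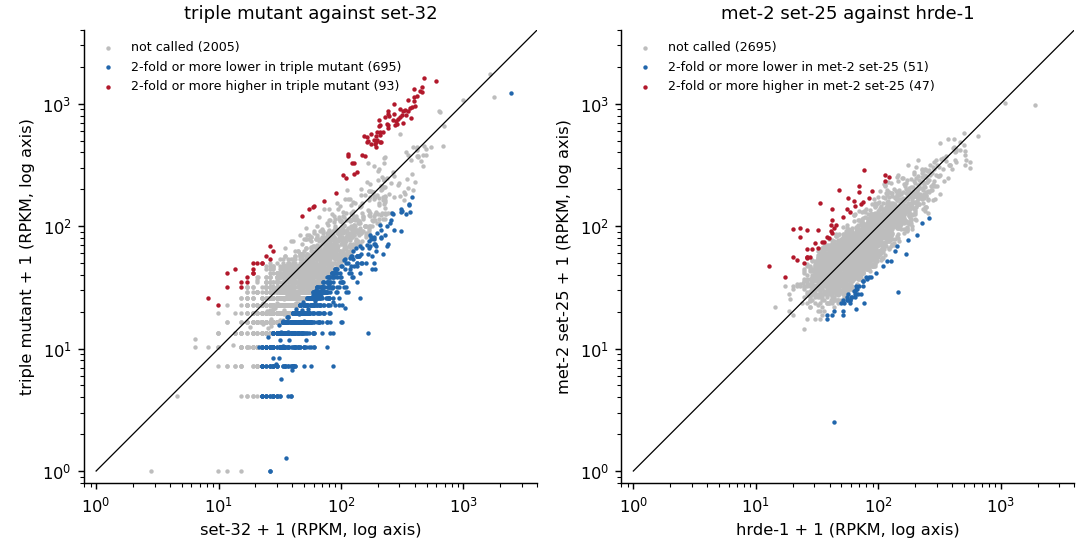
Each point is a member, with RPKM plus 1 on log axes, for the triple mutant against set-32 (left) and the double mutant against hrde-1 (right), and the line marks equal values. In the left panel the members called higher (93, red) include 67 at 247 RPKM or more in the triple mutant, and 695 were called lower (blue). In the right panel 47 were called higher and 51 lower.

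As deposited, member values differed less between the double mutant and hrde-1, which compares the loss of MET-2 and SET-25 with the loss of HRDE-1. The median log2 ratio was -0.09, against 0.11 in unlisted windows. After rescaling it was -0.20, near the -0.27 of the triple mutant to set-32. The double mutant and hrde-1 libraries are also deeper, with 33.5 and 33.9 reads at 50 RPKM against 16.2 and 27.8 in the triple mutant and set-32. The part of depth in the number of calls was not tested. In the double mutant the value was lower than in hrde-1 at 1623 members and higher at 1170. By the 2-fold rule 47 members (1.68%) were called higher and 51 (1.83%) lower, where all windows tested had 1.57% higher and 1.1% lower, and with the libraries rescaled to the unlisted windows 33 members were higher and 98 lower (1.1% and 1.35% of all windows). Windows that reached 20 RPKM in either library had 9.93% higher and 6.99% lower, and the 684 other windows with at least 50 RPKM in WT had 6.87% higher and 13.7% lower. The share of members called in either direction was thus below that of both sets. The first set includes members and many windows of lower level, and the second differs from the members in list marks, classes or chromosome. The lower share is therefore not read as a trait of the members.

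The largest and smallest ratios of this comparison came from several chromosomes. II 13289001 to 13290000 had 94.0 RPKM for the double mutant and 19.2 RPKM for hrde-1 (ratio 4.91, 2.67 to 9.72), and II 13297001 to 13298000 nearby had 154 RPKM and 32.4 RPKM. Both are in class 5. III 4175001 to 4176000 had 288 RPKM for the double mutant and 75.2 RPKM for hrde-1 (3.83, 2.80 to 5.33), while its values were 111 RPKM for the triple mutant, 189 RPKM for set-32 and 402 RPKM for WT. Here hrde-1 was the lowest of the 5 libraries. IV 8609001 to 8610000 had 1.49 RPKM for the double mutant, which is 1 read, and 42.7 RPKM for hrde-1. Its values elsewhere were 9.26 RPKM for the triple mutant, 18.0 RPKM for set-32 and 51.1 RPKM for WT, so the double mutant was the lowest.

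Few members were called the same way in both comparisons. Both called 22 members lower, 0.788% of members, against 0.184% of all windows tested. These were 3.17% of the members lower in the triple mutant and 43.1% of those lower in the double mutant, and over all windows the like shares were 7.35% and 16.7%. Only 9240 of the 99764 windows reached 20 RPKM in the first comparison and 15736 in the second, and the rest could not be called. A share among windows of like level is not given here, so the higher shares of members are not read as a trait of theirs. Both called 4 members higher, 0.143% of members, against 0.0852% of all windows. They were 4.30% and 8.51% of the members' lists, against 11.4% and 5.44% over all windows. A further 11 members were lower in the triple mutant over set-32 and higher in the double mutant over hrde-1. These were 0.394% of members, against 0.0722% of all windows. The reverse was found in 0 members and 0.012% of all windows. The clearest of those lower in both was III 6564001 to 6565000 (class 5, centre). It had 20.3 RPKM for the triple mutant and 107 RPKM for set-32 (0.190, 0.0773 to 0.439), and 27.9 RPKM for the double mutant and 145 RPKM for hrde-1 (0.193, 0.113 to 0.323). WT had 160 RPKM, so both strains without MET-2 and SET-25 were low and the 3 others high. The window to its right, III 6565001 to 6566000, is no member because it is in class 4. It had 26.5 RPKM for the triple mutant, 93.8 RPKM for set-32, 20.8 RPKM for the double mutant, 111 RPKM for hrde-1 and 121 RPKM for WT.

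The 4 members called higher in both lay on chromosomes II and V. V 4186001 to 4187000 (class 5) had 142 RPKM for the triple mutant and 57.5 RPKM for set-32 (2.47, 1.54 to 4.01), and 169 RPKM for the double mutant and 56.0 RPKM for hrde-1 (3.01, 2.07 to 4.47), with 63.8 RPKM for WT. II 9618001 to 9619000 (class 7) had 136 RPKM for the triple mutant and 53.9 RPKM for set-32, and 158 RPKM for the double mutant and 61.9 RPKM for hrde-1, with 66.6 RPKM for WT. In both windows the strains without MET-2 and SET-25 lay above the other 3 libraries. II 5661001 to 5662000 and V 11533001 to 11534000 were the other 2, at 67.9 and 24.7 RPKM for the triple mutant, and for the second of them the counting interval of the ratio to set-32 (0.921 to 15.6) holds 1.

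The level of a window in WT, which enters neither comparison, was related to the ratio of the double mutant to hrde-1 in their sums. For windows of the same classes below the threshold, the ratio of summed RPKM was 1.38 (1.35 to 1.41) at 2 to 5 RPKM in WT and 1.02 at 30 to 50 RPKM. In members it was 0.980 at 50 to 75 RPKM, 0.955 at 75 to 100, 0.933 at 100 to 150, 0.949 at 150 to 200, 0.904 at 200 to 300 and 0.887 (0.866 to 0.908) at 300 RPKM or more. The members thus lie at the low end of a gradient that runs through the threshold. The ratio of the triple mutant to set-32 also differed by level below the threshold, with 1.12 at 2 to 5 RPKM, 0.939 at 5 to 10, 0.842 at 10 to 20, 0.789 at 20 to 30 and 0.822 at 30 to 50 RPKM. In members it was 0.864, 0.912, 1.01, 0.935, 0.863 and 0.668 from the lowest to the highest bin. Without the windows called higher, a choice that rests on the same ratio, it was 1.09 at 2 to 5 RPKM, 0.702 at 30 to 50 RPKM, between 0.690 and 0.748 in the members below 300 RPKM and 0.644 (0.621 to 0.667) in the 56 members at 300 RPKM or more.

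**Figure D5:**
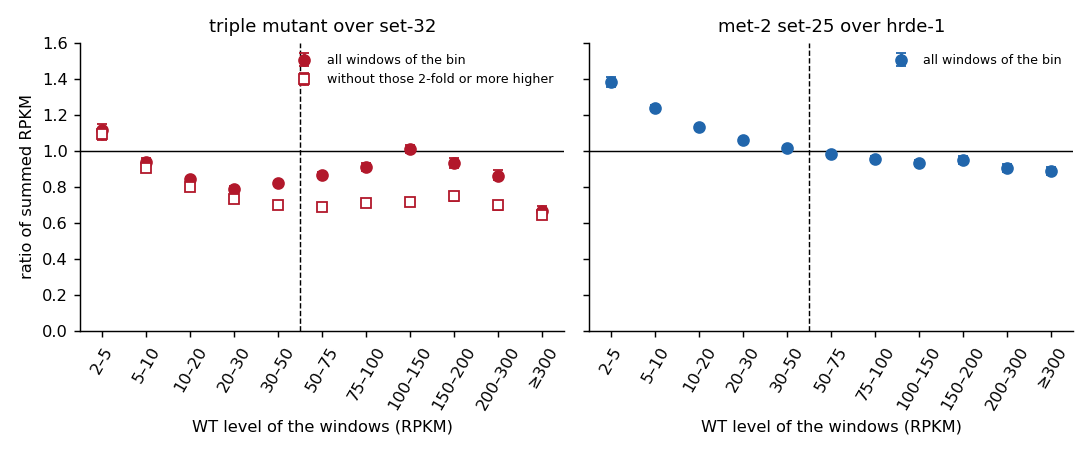
Ratio of summed RPKM of the triple mutant to set-32 (left) and of the double mutant to hrde-1 (right) in bins of the WT level, with 95% counting intervals, members being to the right of the dashed line. Open squares leave out windows called higher in the triple mutant. The left panel is not monotonic, with 1.12 in the lowest bin, 0.789 at 20 to 30 RPKM, 1.01 at 100 to 150 RPKM and 0.668 in the highest, and the right panel goes from 1.38 in the lowest bin to 0.887 in the highest.

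Ratios to WT were below 1 at the median in each mutant, and counting noise in WT at the choice of members moves them that way. The median log2 ratio was -1.32 in the triple mutant, -0.72 in set-32, -0.37 in the double mutant and -0.28 in hrde-1, beside -0.86, -0.55, -0.00 and -0.12 in unlisted windows. When windows were chosen because the 4 mutants averaged 50 RPKM or more, in place of WT, the medians were -0.98, -0.47, -0.20 and -0.12. Against WT, the triple mutant had 104 members called higher and 1872 (67.0%) lower, where all windows tested had 0.681% higher and 8.06% lower. For set-32 the counts were 76 higher and 798 lower (background 0.402% and 4.27%), for the double mutant they were 18 and 224 (1.19% and 1.26%), and for hrde-1 11 and 116 (0.749% and 1.1%). The rule used this contrast, and nothing is read from these counts.

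The 10 members with the highest WT values lay on chromosomes II, III, IV and V. IV 8262001 to 8263000 (class 5) had 1217 RPKM for the triple mutant, 2454 RPKM for set-32, 967 RPKM for the double mutant, 1913 RPKM for hrde-1 and 1343 RPKM for WT. Its ratios were 0.496 (0.442 to 0.555) for the triple mutant to set-32 and 0.506 (0.459 to 0.556) for the double mutant to hrde-1, so both strains without MET-2 and SET-25 were at about the same fraction of their counterpart. V 9339001 to 9340000 (class 6) had 1130, 1764, 1017, 1092 and 656 RPKM in the order of libraries used above, and WT was the lowest. III 7102001 to 7104000 held a pair of adjacent windows among the 10 highest, with 182 and 130 RPKM for the triple mutant and 334 and 363 RPKM for set-32. In the double mutant this pair had 439 and 424 RPKM, and in hrde-1 it had 417 and 430 RPKM. At the threshold, the 3 lowest members had 50.1 to 50.2 RPKM in WT and 9.26 to 22.4 RPKM for the triple mutant, and the 3 windows just below it had 49.3 to 49.6 RPKM in WT and 21.8 to 40.2 RPKM for the triple mutant.

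Single libraries stood apart at some members, most often the triple mutant. After rescaling, the triple mutant was at least 4-fold above the median of the other 4 libraries at 81 members and at least 4-fold below at 70, against 5 and 5 in set-32, 1 and 2 in the double mutant, 1 and 0 in hrde-1 and 2 and 2 in WT. The triple mutant library is also the shallowest. The 2 members lowest in both strains that carry the ok1457 allele of set-32 were chosen after the values were seen. V 10018001 to 10019000 had 0 RPKM for the triple mutant and 1.80 RPKM for set-32, which is 1 read, against 34.3 RPKM for the double mutant, 57.5 RPKM for hrde-1 and 50.2 RPKM for WT. It opens a run of 4 kb whose mean was 12.4 RPKM for the triple mutant, 19.3 RPKM for set-32, 59.7 RPKM for the double mutant, 114 RPKM for hrde-1 and 74.8 RPKM for WT. I 9079001 to 9080000 had 3.09 RPKM for the triple mutant, 3.59 RPKM for set-32, 37.3 RPKM for the double mutant, 44.2 RPKM for hrde-1 and 77.5 RPKM for WT. The allele and the library set are shared by the same pair of libraries and cannot be told apart there.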

How the data were processed

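Pre-mRNA-seq of 5 libraries was read from 1 table of 1 kb windows. The authors, by the methods of the study and by the processing notes of the submitters, aligned reads to WS190 (ce6) with Bowtie 0.12.7, kept perfect alignments, and split a read with several matches evenly among them. RPKM values were deposited for single libraries, scaled by depth. A further deposited column holds a score, the H3K9me3 class, which the sources used here do not define. Columns marked yes list GRTS, GRH, misannotated and H3K9me3 loss windows. Library codes were matched to genotypes through the study's list of libraries.

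The RPKM of 1 read, found from the steps between low values, was 3.09 (triple mutant), 1.80 (set-32), 1.49 (double mutant), 1.47 (hrde-1) and 0.912 (WT). Between 88.5% and 91.6% of positive member values were whole reads within 0.02 read. A test on the recovered reads was not run, with 1 library a group. Ratios of sums have 95% Clopper-Pearson intervals on the rounded reads (SciPy 1.17.1), which hold counting error alone, as PCR copies are no separate molecules. Log2 ratios are on the log2(RPKM + 1) scale, which understates changes of low windows. Of all windows, 506 marked misannotated were left out. Rescaling set the median ratio of 32495 windows in no list (mean of at least 5 RPKM) to 1. Scripts were tested on simulated data (NumPy 2.4.6, pandas 2.3.3).

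The windows named were the 10 members with the highest WT value, the longest runs, the members with the 5 largest and 5 smallest ratios among those called in each comparison within a set, those called in both, and 3 windows on either side of the threshold, of which examples are printed. Members, lists and rules were chosen with earlier results of these data known. Other settings tried were pseudocounts, thresholds, scalings, arm borders and minimum values. No sequence or gene annotation of the ce6 build was used here.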

Additional observations from a re-analysis of the deposited data

Results flagged for a closer look

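At 3 members, all on chromosome I, the 2 contrasts that remove MET-2 and SET-25, the triple mutant over set-32 and the double mutant over WT, were called in opposite directions. This difference was not tested. The first contrast called 93 members higher and 695 lower, and the second called 18 higher and 224 lower. The share of all windows with opposite calls is not given here, so the 3 are examples and not a trait of the members. WT also chose the members, so the second contrast is not independent of that choice. I 3863001 to 3864000 had 49.4 RPKM for the triple mutant and 18.0 RPKM for set-32, but 28.4 RPKM for the double mutant and 60.2 RPKM for WT, and the log2 ratios differed by 2.47. Its values in the triple mutant and set-32 rest on 16 and 10 reads. I 7058001 to 7059000 had 24.7 RPKM for the triple mutant and 55.7 RPKM for set-32, against 131 RPKM for the double mutant and 62.9 RPKM for WT, a difference of -2.19. I 7658001 to 7659000 had 24.7 RPKM for the triple mutant and 52.1 RPKM for set-32, against 196 RPKM for the double mutant and 82.1 RPKM for WT, a difference of -2.29. In the last window hrde-1 had 47.2 RPKM.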

How the results depend on the processing

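No paired analysis was possible because each genotype has 1 library, and no library could be left out. Of 76 values under other settings, 41 were close to those reported and 35 moved. Among the medians 0 changed sign, while counts, shares and the summed ratio could not change sign. Rescaled to windows in no list, member medians (log2) were -0.46 (triple mutant), -0.17 (set-32) and -0.15 (hrde-1) over WT, -0.27 for the triple mutant over set-32 and -0.20 for the double mutant over hrde-1, with 420 and 98 members called lower in the last 2 comparisons. Rescaled to the total without rRNA gene windows, the same medians were -0.74, -0.33, -0.21, -0.37 and -0.14. At a pseudocount of 5 RPKM they were -1.22, -0.68 and -0.26 over WT and -0.51 for the triple mutant over set-32. At a WT threshold of 100 RPKM they were -1.27 (triple mutant), -0.62 (set-32) and -0.41 (the double mutant) over WT and -0.13 for the double mutant over hrde-1. With windows chosen by the mean of the 4 mutants they were -0.98, -0.47, -0.20 (the double mutant) and -0.12 (hrde-1) over WT. At a ratio of at least 4, 91 members were lower and 0 higher in the triple mutant over set-32, and 2 lower and 4 higher in the double mutant over hrde-1. In the triple mutant over set-32, 461 were lower with a counting interval that leaves out 1, and 330 where 50 RPKM was reached in either library. The share in centres was 75.3% with arms of the outer 20%, where 68.6% of the windows that met the rule apart from level lay. The share of members whose next window to the right was a member, 42.5% as chosen, was 50.0% at a threshold of 30 RPKM, 37.0% at 100 RPKM and 39.8% by the mean of 5 libraries. The summed ratio of the triple mutant to set-32 was 0.700 without the members called higher, an alternative chosen after seeing the data. The cause of these moves was not tested beyond what each setting changes by its construction. Depth limits single windows most in the triple mutant, where 50 RPKM is 16.2 reads.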
